A study of Mus musculus with 2 samples.

Results

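The genes that carry calcium, bicarbonate, protons and chloride across the cells that make enamel were compared between the tooth and the skin of newborn mice. The set held 10 genes and was chosen by gene name among the non-control spots of both arrays. It was represented by 15 of 55681 probes and by 10 of 24323 named genes, with 6 genes having 1 probe and 4 genes having several. The members were the calcium sensor Stim1, the calcium buffer Calb1, the calcium exporters Atp2b1, Slc24a3 and Slc24a4, the carbonic anhydrases Car2 and Car6, the bicarbonate transporters Slc4a2 and Slc4a4, and the chloride channel Cftr. Both RNA samples came from wild-type mice at postnatal day 0 per the labels, while the study's methods placed the tissues 1 day later and listed C57BL/6J mice. No transgene, mutation or treatment was named for either group. There was 1 tooth array and 1 skin array on the same slide, and the number of animals behind each RNA sample is not given in the sources used here. The tooth samples were whole germs with epithelium and mesenchyme, and the skin contained hair follicles. The question was how a normal tooth differs from normal skin, both of which are ectodermal organs, and with 1 array per tissue no difference could be tested.

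Ameloblasts are epithelial cells that first secrete an enamel matrix and then bring in mineral ions while the matrix is removed. Calcium enters the cell when the store sensor Stim1 opens plasma membrane channels, is carried through the cytosol by buffers such as calbindin, and leaves through ATP-driven pumps and sodium-calcium exchangers. Crystal growth sets free protons, and carbonic anhydrases, bicarbonate transporters and chloride channels take part in neutralising them.

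The probes were 60 bases long, and the first 30 bases of those on which the differences rest are printed here as the files give them, with the bases in capitals shared with the neighbouring probe of the same gene. The coordinates refer to mm9, as stated in the file headers. Whether a probe lies in an exon or a UTR was not analysed here. Calb1, Car2, Slc24a3 and Car6 are shown because they carried the largest differences among the 10 genes, and the Slc4a4 and Stim1 pairs because each pair read nearly the same stretch of the transcript.
Calb1, brighter probe, chr4:15835078-15835137, plus strand: gaagtagcagttcctgatgaggaataaggg
Calb1, other probe, chr4:15833582-15833641, plus strand: ctcagtgaatgacttagaggtatgagcagt
Car2, chr3:14900206-14900265, plus strand: cctctcatccgttgtgcttactaacaaaat
Slc24a3, chr2:145467614-145467673, plus strand: acttatcatccattcggtatggttttccca
Car6, chr4:149561160-149561219, minus strand: gccgaaaaaagaaaaccattcaccttgatc
Slc4a4, brighter probe, chr5:89663838-89663897, plus strand: ATTCCTCGAACGCCACACATCATGCTGATA
Slc4a4, overlapping probe, chr5:89663826-89663885, plus strand: aagatcctcaacATTCCTCGAACGCCACAC
Stim1, brighter probe, chr7:109585303-109585362, plus strand: agggctcttGTGGAGCCCTGGGCAAGGATG
Stim1, overlapping probe, chr7:109585312-109585371, plus strand: GTGGAGCCCTGGGCAAGGATGTTATATTTG
The Slc4a4 pair shared 48 bases with starts 12 bases apart, and the Stim1 pair shared 51 bases with starts 9 bases apart. These pairs are repeated readings of 1 site, whereas the Calb1 probes lay 1496 bases apart. The letters AATAAA, searched on the strand of the probe, were held by 3 of the 15 probes of the set and by 13.4% of 33184 named probes.

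The 10 genes were higher in tooth more often than in skin. All were well above background on both arrays, the call of the extraction software that a spot clearly exceeds its background. Levels are given as log2 of the processed signal minus the 75th percentile of the same array, and differences as skin minus tooth on that log2 scale. By the brightest probe of each gene, 5 of the 10 genes were at least 2-fold higher in tooth, against a background of 15.5% of the 17409 named genes that had this call on at least 1 array. They were Calb1, Car2, Slc24a3, Slc4a4 and Atp2b1. In skin, 1 of the 10 was at least 2-fold higher, Car6, against a background of 14.2%. The other 4, Slc4a2, Slc24a4, Stim1 and Cftr, lay within 2-fold. The median difference of the 10 genes was -1.23, with a range of -7.62 to 4.97, and the median over the 17409 genes was -0.04. These counts describe 2 arrays and not the spread between mice.

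**Figure D1:**
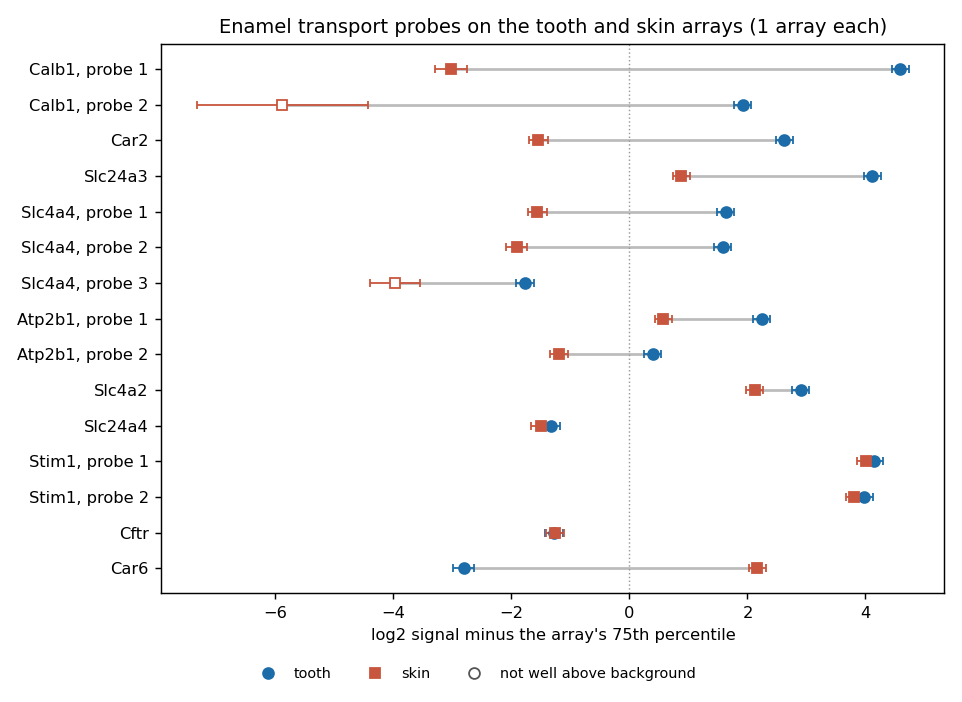
Log2 signal minus the 75th percentile of the array (horizontal axis) for each of the 15 probes on the tooth array (circles) and the skin array (squares), 1 array per tissue. Bars are the extraction software's error for 1 spot, and open symbols are not well above background. The tooth and skin symbols of Calb1, Car2, Slc24a3, Slc4a4, Atp2b1 and Car6 lie far apart, and those of Slc24a4, Stim1 and Cftr overlap.

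The calcium buffer Calb1 had the largest difference of the set. Calb1 encodes calbindin-D28k, a cytosolic calcium-binding protein known from calcium-transporting epithelia, including ameloblasts. Its brighter probe gave a processed signal of 10307 ± 1031 in tooth and 33.8 ± 6.34 in skin, where the error is that of the extraction software for 1 spot. The scaled log2 levels were 4.59 in tooth and -3.03 in skin. The difference was -7.62 ± 0.31, a 197-fold higher level in tooth. Among the 15271 named genes measured on both arrays, only 3 had a difference further toward tooth. Genes that clearly exceeded background on 1 array alone have no rank here. Some of them lay further toward tooth than Calb1, such as Enam (at least 2466-fold), Odam (at least 402-fold) and Slc13a5 (at least 293-fold). The other probe of Calb1 gave 1623 ± 162 in tooth and 4.69 ± 4.70 in skin, where it was not well above background. For such a probe the tooth level was set against the lowest skin level that still had this call, or against its own skin level where that was higher. By this bound it was at least 50.4-fold higher in tooth. Both probes therefore had the same direction.

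Among the calcium exporters, Slc24a3 and Atp2b1 were higher in tooth and Slc24a4 lay within 2-fold. Slc24a3 encodes a potassium-dependent sodium-calcium exchanger. Its probe gave 7416 ± 742 in tooth and 507 ± 50.9 in skin, with scaled log2 levels of 4.12 and 0.88. The difference was -3.24 ± 0.20, or 9.44-fold, and ranked 182 of 15271 toward tooth. Slc24a3 was thus well measured in both tissues, with the higher level in tooth.

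Atp2b1 encodes a plasma membrane calcium ATPase that is present in most cells. Its brighter probe (chr10:98431670-98431729) gave 2030 ± 203 in tooth and 412 ± 41.5 in skin, with scaled log2 levels of 2.25 and 0.58 and a difference of -1.67 ± 0.20 (3.18-fold). The other probe, which lay 54105 bases away (chr10:98485775-98485834), gave 562 ± 56.4 and 121 ± 13.0 and a difference of -1.59 ± 0.21. These distant probes differed from each other by 0.08, less than the error of either.

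Slc24a4 encodes the exchanger of maturation ameloblasts, and its loss causes an inherited enamel defect. It also stands in the study's list of transcripts lowered in the Sox21-knockout tooth germ. Its probe (chr12:103504900-103504959) gave 170 ± 17.7 in tooth and 97.4 ± 11.0 in skin before scaling, and the scaled log2 levels were -1.33 and -1.50. The difference of -0.17 ± 0.22 was smaller than its error. The sign depended on the background correction, as normexp correction, which models the background from the spot and its surroundings, gave 0.06. The size depended on the scaling, with -0.42 under a median shift and -0.86 with spike-in scaling, both larger than the error and below 2-fold. The arrays as a whole differed in brightness, with a 75th percentile of 427.9 in tooth and 276.1 in skin, a ratio of 1.55, and before scaling Slc24a4 was 1.75-fold higher in tooth.

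The store sensor Stim1 was nearly equal in the tissues. Stim1 spans the membrane of the endoplasmic reticulum, and inherited loss of its function affects immune cells, muscle and enamel. Its brighter probe gave 7600 ± 760 in tooth and 4419 ± 442 in skin, with scaled log2 levels of 4.15 and 4.0 and a difference of -0.15 ± 0.20. The overlapping probe gave 6761 ± 676 and 3864 ± 386 and a difference of -0.18 ± 0.20. Both differences were smaller than their errors. By the brightest probe, the difference was -0.40 under a median shift and -0.84 with spike-in scaling, larger than the error and below 2-fold.

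The carbonic anhydrases of the set differed in opposite directions. These enzymes interconvert carbon dioxide and bicarbonate, Car2 inside cells and Car6 as a secreted form. Car2 had 2638 ± 264 in tooth and 94.6 ± 10.6 in skin. Its scaled log2 levels were 2.62 and -1.55, and its difference was -4.17 ± 0.22, an 18.0-fold higher level in tooth that ranked 77 toward tooth.

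Car2 is also known from red cells and from osteoclasts, the cells that resorb bone, and markers of both were read beside it. All 7 osteoclast markers were well above background in tooth, with a summed scaled signal of 302 in tooth and 18.7 in skin. Most of the tooth sum came from Acp5 and Ctsk, with scaled log2 levels of 7.82 and 6.08 in tooth. Acp5 (-3.88), Ctsk (-4.89), Dcstamp (-4.24) and Ocstamp (-1.16) were at least 2-fold higher in tooth, Mmp9 and Calcr were well above background in tooth only, and Oscar had a difference of -0.34. Under normexp correction 4 of the 7 were at least 2-fold higher in tooth. Among red cell markers, the differences were -1.23 for Hba-a1, -0.84 for Alas2 and 0.53 for Hemgn, and Rhag was not well above background in tooth or in skin. The part of osteoclasts and red cells in the Car2 value was not tested. In whole tissues, fewer cells of a type and less RNA per cell cannot be told apart.

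Car6 was the only gene of the set that was at least 2-fold higher in skin. Its probe gave 61.2 ± 7.64 in tooth and 1240 ± 124 in skin, with scaled log2 levels of -2.81 and 2.17. The difference was 4.97 ± 0.23, a 31.4-fold higher level in skin that ranked 148 of 15271 toward skin. Car6 is best known as a salivary enzyme. Of 6 salivary gland markers, Bpifa2, Smgc, Dcpp1, Prol1 and Muc19 were not well above background in tooth or in skin. Aqp5, which is also found in sweat gland and other epithelia, was measured in skin alone and at least 16.1-fold higher there by its brighter probe. Its other probe was also measured in skin alone, at a lower skin level (-2.14, against -0.51). The summed scaled signal of the 6 markers was 0.12 in tooth and 0.83 in skin. The tooth sum holds only values not well above background, and most of the skin sum came from Aqp5.

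Of the bicarbonate transporters, Slc4a4 was higher in tooth and Slc4a2 lay within 2-fold. Slc4a4 encodes the electrogenic sodium-bicarbonate cotransporter NBCe1, whose loss gives weak enamel in mice and people. Its brighter probe gave 1330 ± 133 in tooth and 93.7 ± 10.5 in skin, with scaled log2 levels of 1.64 and -1.56. The difference was -3.19 ± 0.22 (9.16-fold), and it ranked 187 toward tooth. The overlapping probe gave 1280 ± 128 and 73.6 ± 9.04 and a difference of -3.49 ± 0.23, so the pair differed by 0.29. Another probe of the gene (chr5:89668602-89668661), with 15.0% G and C, gave 126 ± 13.3 in tooth and 17.7 ± 5.24 in skin. The skin value was not well above background, and the bound for tooth over skin was at least 3.89-fold. All 3 probes had the same direction.

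Slc4a2 encodes the chloride-bicarbonate exchanger AE2, which is used by ameloblasts and by osteoclasts. Its probe (chr5:23946704-23946763) gave 3200 ± 320 in tooth and 1203 ± 120 in skin, with scaled log2 levels of 2.90 and 2.12. The difference of -0.78 ± 0.20 (1.72-fold) was larger than its error and below the 2-fold threshold. It passed 2-fold with a median shift (-1.03) or spike-in scaling (-1.47).

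The chloride channel Cftr showed no separation. Cftr conducts chloride and bicarbonate across epithelia, and mice without it have poorly mineralised enamel. Its probe (chr6:18270974-18271033) gave 176 ± 18.1 in tooth and 115 ± 12.4 in skin before scaling. The scaled log2 levels were -1.28 and -1.26, with a difference of 0.02 ± 0.22. The sign turned with the scaling, to -0.23 under a median shift and to -0.67 with the spike-ins.

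In order from tooth to skin, the differences ran from Calb1 over Car2, Slc24a3, Slc4a4, Atp2b1, Slc4a2, Slc24a4, Stim1 and Cftr to Car6. Slc24a3 and Slc4a4 differed from each other by less than their errors, as did Slc24a4, Stim1 and Cftr. The errors of the 10 differences were 0.20 to 0.31 and cover measurement within an array only. Probes printed many times on an array scattered less, so that spot scatter alone would give a difference an SD of 0.12. Neither value covers dissection, RNA preparation or differences between mice.

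**Figure D2:**
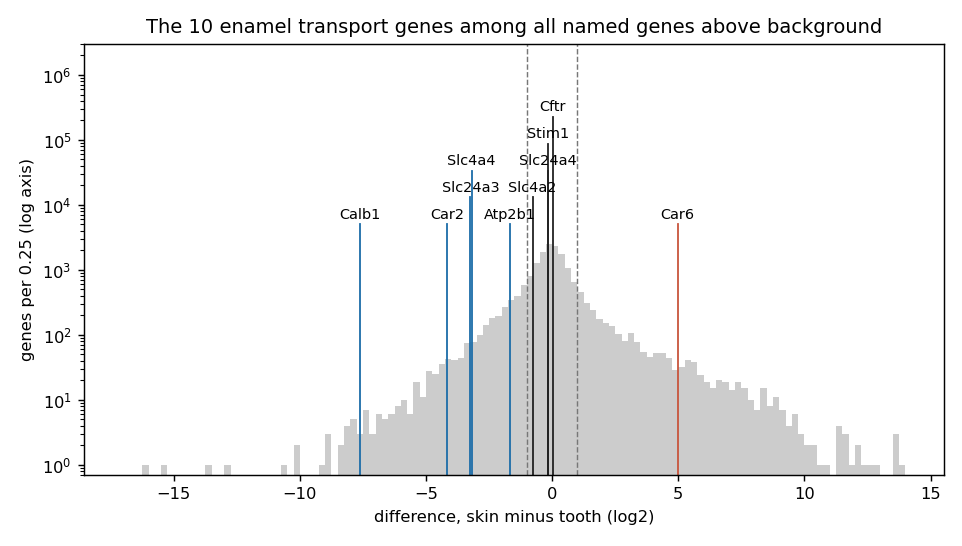
Number of named genes (vertical axis, log scale) by difference in log2 level, skin minus tooth (horizontal axis, bins of 0.25), for the 17409 genes well above background on at least 1 array, 1 array per tissue. Vertical lines mark the 10 enamel transport genes and dashed lines mark 2-fold. Calb1 at -7.62 lies in the sparse tail toward tooth, Car6 at 4.97 in the tail toward skin, and Slc4a2, Slc24a4, Stim1 and Cftr in the central peak.

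The other genes of these pathways were then counted in lists of known function, which were chosen with earlier results of these data known. Of 111 other transport and enamel genes on the arrays, 97 were well above background in tooth, skin or both. At least 2-fold higher levels were found in tooth for 28 of them (28.9%) and in skin for 14 (14.4%), and 55 lay within 2-fold, with a median difference of -0.23. Over all 17409 named genes with this call on at least 1 array, the shares were 15.5% in tooth and 14.2% in skin. Of the 82 measured on both arrays, 20 (24.4%) were at least 2-fold higher in tooth and 11 (13.4%) in skin, where 12.3% and 11.4% of all 15271 such genes were. The lists of phosphate and magnesium transport and of enamel regulators held many of the tooth genes. Without these lists, 16 of 80 genes (20.0%) were at least 2-fold higher in tooth and 11 (13.8%) in skin, with a median of -0.22. These 80 genes had the call on at least 1 array, so their shares compare with 15.5% and 14.2% of all genes.

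Calcium entry and storage contained members in both directions. Of 7 calcium entry genes, 3 were at least 2-fold higher in tooth and none in skin, with a median of -0.84. Trpm7, a channel that passes magnesium and calcium, had levels of 4.28 in tooth and 1.98 in skin (-2.30). The channel subunits Orai2 (1.60 and 0.49, a difference of -1.12) and Orai3 (-1.06), which are opened by Stim proteins, lay close to the threshold. Other probes, well above background on both arrays, gave -0.92 for Orai2 and -1.12 and -0.45 for Orai3, so the count rests on the brightest probes. Spike-in scaling gave 5 of the 7 in tooth.

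Of 9 calcium store genes well above background, 2 were at least 2-fold higher in each tissue. The inositol trisphosphate receptor Itpr1 fell from 3.18 in tooth to -0.42 in skin (-3.60, 12.1-fold), and Calr, a calcium-binding chaperone of the store, had -1.04. Itpr2 (1.90) and the muscle release channel Ryr1 (2.38) were higher in skin. By the other probe of Itpr2, neither array was well above background. Of 6 skeletal muscle markers, Myh3, Ckm, Acta1, Tnnt3 and Myl1 passed 2-fold toward skin and Actn3 had a difference of -0.47, with a summed scaled signal of 7.20 in tooth and 62.0 in skin. Their part in the Ryr1 value was not tested. The median of the store list was -0.53, turned to 0.10 under normexp correction and was -1.22 under spike-in scaling, with 5 genes in tooth.

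Of the other calcium buffers Calb2, S100g and Pvalb, only Pvalb was well above background, with a difference of 0.57. The 9 other calcium exporters well above background split evenly, with 2 at least 2-fold higher in each tissue and a median of 0.02. Spike-in scaling gave 3 in tooth and 2 in skin with a median of -0.67. Under normexp correction the counts were 1 and 2, with a median of 0.07. By their brightest probes, Slc24a2 and the pump Atp2b3 exceeded background clearly in tooth alone, by at least 5.84-fold and 2.12-fold over skin. By another probe Slc24a2 was well above background on neither array. Its remaining probe had this call in tooth alone, at -3.71, close to the lowest skin level with the call (-3.73). The other probe of Atp2b3 also had the call in tooth alone, at -3.10. Slc24a5, the exchanger of pigment cells, had a tooth level of -2.08, a skin level of 1.20 and thus a difference of 3.27 (9.66-fold), and the mitochondrial exchanger Slc8b1 had a difference of 1.78. All 5 melanocyte markers, Dct, Tyrp1, Pmel, Mlana and Tyr, were at least 2-fold higher in skin, with a summed scaled signal of 2.30 in tooth and 173 in skin. Tyrp1 was not well above background in tooth. Their part in the Slc24a5 value was not tested.

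Of 12 other bicarbonate transporters well above background, 4 were at least 2-fold higher in tooth and 2 in skin, with a median of -0.20. The median was 0.08 under normexp correction and -0.89 under spike-in scaling, which gave 5 in tooth and 1 in skin. Slc26a7 and Slc26a1 exceeded background clearly in tooth alone, by at least 6.78-fold and 3.26-fold over skin, and Slc4a3 (-1.30) and Slc26a6 (-1.16) were measured on both arrays. Slc26a9 was measured in skin alone, at least 22.6-fold higher, and Slc4a11 had a difference of 1.47. Slc4a9 lay within 2-fold by its brighter probe (-0.07), but its other probe, well above background on both arrays, gave 1.63. The skin count therefore rests on the brightest probes. Of 11 other carbonic anhydrases, 1 in each direction passed 2-fold by the brightest probe, Car9 in tooth (-2.17) and Car14 in skin (2.12). Under normexp correction none passed in tooth. Their median was 0.57, and -0.12 under spike-in scaling.

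Proton transport genes were mostly within 2-fold, with a few large differences, most of them toward skin. Of 5 sodium/proton exchangers, Slc9a2 was 16.1-fold higher in skin (4.01) from a tooth level of -4.09, close to the lowest level called well above background there (-4.52), and Slc9a8 had a difference of -1.06 by its brighter probe and -0.17 by the other. Of 20 subunits of the vacuolar proton pump, 15 lay within 2-fold, with a median of -0.23. Spike-in scaling moved this median to -0.92 and gave 7 subunits at least 2-fold higher in tooth and 3 in skin. Atp6v1c2 (65.7-fold, from -2.04 in tooth to 3.99 in skin), Atp6v1b1 (16.5-fold, with a tooth level of -4.44 close to background) and Atp6v0a4 (9.33-fold) were higher in skin. These are subunits that few cell types use. Atp6v0d2, a subunit known from osteoclasts, was measured in tooth alone and at least 13.9-fold higher there by its brighter probe. Its other probe was also well above background in tooth alone, at a lower tooth level (-2.68, against 0.07). Tcirg1, also used by osteoclasts, had a difference of -1.04. The part of osteoclasts, whose markers are given beside Car2, was not tested. The 6 other chloride transport genes included 1 at least 2-fold higher in tooth, the cotransporter Slc12a2 (-1.29), and had a median of 0.01 (-0.68 under spike-in scaling and -0.05 under normexp correction).

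Transporters of phosphate and magnesium and regulators of enamel formation had medians of -2.16 and -3.10. The second value came from a gene dim in skin and was -2.68 with dim values at their bound and -1.90 under normexp correction, which left the first at -2.17. Of 8 phosphate and magnesium genes, 5 were at least 2-fold higher in tooth and 2 in skin. Slc13a5, a citrate transporter listed with them, was measured in tooth alone and at least 293-fold higher there. The phosphate transporter Slc34a1 had levels of 4.06 in tooth and -2.19 in skin (76.5-fold), although by its other probe neither array was well above background. Slc20a2 (-2.98, and -3.26 by its other probe) and the phosphate exporter Xpr1 (-2.56) were also higher in tooth, whereas Slc34a2 and Slc34a3 were measured in skin alone, at least 5.06-fold and 2.92-fold higher there. Phosphate transporters were therefore found on both sides.

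Of 9 enamel regulators well above background, 7 were at least 2-fold higher in tooth, or 6 under normexp correction. The phosphatase Acp4 was measured in tooth alone and was there at least 47.2-fold higher. The receptor Relt had a difference of -4.26, and the secretory pathway kinase Fam20c and its partner Fam20a had -3.49 and -4.18. Fam83h was 3.30-fold higher in skin (1.72). Mutations of these genes are known to cause enamel defects.

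**Figure D3:**
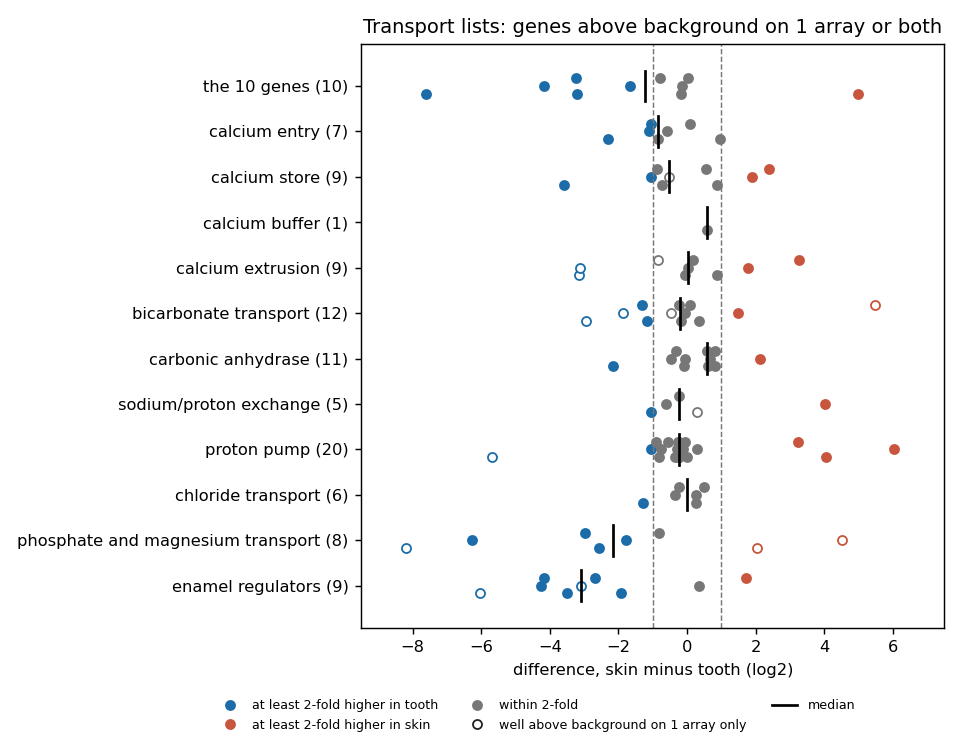
Difference in log2 level, skin minus tooth (horizontal axis), of each gene well above background, for the 10 genes and for 11 lists of other transport and enamel genes, 1 array per tissue. Numbers in parentheses are genes shown, black bars are medians, dashed lines mark 2-fold and open circles were well above background on 1 array only. The medians of phosphate and magnesium transport (-2.16) and enamel regulators (-3.10, or -2.68 with dim values at their bound) lie toward tooth, and those of the proton pump (-0.23) and chloride transport (0.01) near 0. Under spike-in scaling, not shown here, the medians of the proton pump and chloride transport were -0.92 and -0.68.

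The tissues were checked by markers of the cells they could hold. The secretory ameloblast markers Amelx, Ambn, Enam and Mmp20 were all well above background in tooth only, with a summed scaled signal of 2151 in tooth and 0.08 in skin. Among maturation ameloblast markers, Klk4 had a difference of -5.92 and Amtn and Odam were well above background in tooth only, with sums of 42.8 and 0.21. The odontoblast and osteoblast markers Dspp, Dmp1, Ibsp, Bglap, Sp7 and Phex were all at least 2-fold higher in tooth, with sums of 351 and 0.68. The markers of the suprabasal epidermis, Krt1, Krt10, Lor and Flg, were all at least 2-fold higher in skin, with sums of 5.97 in tooth and 3756 in skin. The tooth and skin labels thus fitted their markers. The part of each cell type in the differences of the 10 genes was not tested.

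**Figure D4:**
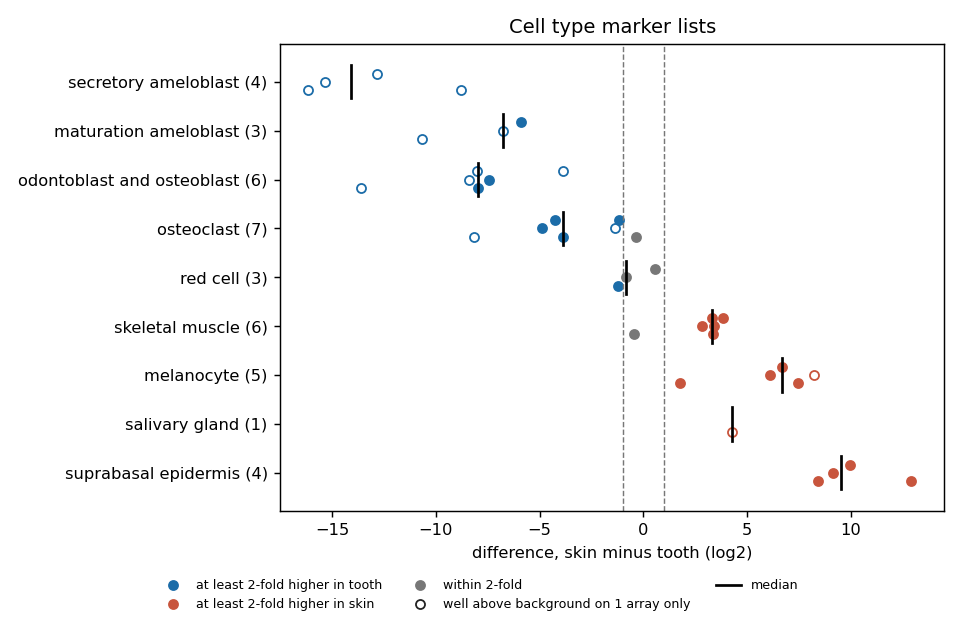
Difference in log2 level, skin minus tooth (horizontal axis), of each marker gene well above background, by cell type, 1 array per tissue. Numbers in parentheses are genes shown, black bars are medians, dashed lines mark 2-fold and open circles were well above background on 1 array only. The ameloblast, odontoblast and osteoclast markers lie toward tooth and those of melanocytes, suprabasal epidermis and muscle toward skin, other than the muscle marker Actn3 (-0.47).

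The stretches upstream of the transcription starts were described for the genes with an entry in the RefSeq table (GRCm38.p6), 8 of the 10, with 12 starts. Calb1 and Car2, which had the largest differences toward tooth, were not among them. Over the 250 bases upstream, the 12 starts had a median of 72.8% G and C and 29 CpG pairs, against 52.4% and 6 for all 32851 starts of 27025 genes. Among the 12, TATAAA was found in 0 (12.4% of all), CCAAT in 4 (33.3%, against 33.9% of all) and GGGCGG in 7 (58.3%, against 32.7% of all), searched on both strands. The last 100 bases before the start are shown for Slc24a3 and Slc4a4, which were higher in tooth, and for Car6, which was higher in skin, with motif matches on either strand in capitals.
Slc24a3, first start, chr2:145167675-145167774, plus strand: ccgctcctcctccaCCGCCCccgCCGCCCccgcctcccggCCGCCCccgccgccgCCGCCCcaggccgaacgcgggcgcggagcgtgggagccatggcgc
Slc4a4, first start, chr5:88887160-88887259, plus strand: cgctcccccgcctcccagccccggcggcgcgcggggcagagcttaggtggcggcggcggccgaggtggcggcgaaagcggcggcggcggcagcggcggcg
Slc4a4, second start, chr5:89027866-89027965, plus strand: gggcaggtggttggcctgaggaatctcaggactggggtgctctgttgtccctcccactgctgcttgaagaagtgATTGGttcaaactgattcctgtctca
Car6, chr4:150201136-150201235, minus strand: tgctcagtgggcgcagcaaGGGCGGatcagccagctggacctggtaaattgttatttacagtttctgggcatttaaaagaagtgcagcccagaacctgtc
The first start of Slc24a3 had 80.8% G and C with 35 CpG pairs in 250 bases, its second start 63.6% with 14, and Car6 had 52.4% with 3. The starts of Slc4a4 differed from each other, with 82.0% and 44 CpG pairs at the first and 48.8% and 3 at the second. The probes of Slc4a4 do not show which start was used. Slc24a4, Stim1 and Cftr, which lay within 2-fold, had 62.8%, 78.4% and 76.4%.

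Other choices of processing were then applied. Calb1, Car2, Slc24a3, Slc4a4, Atp2b1 and Car6 stayed at least 2-fold in the same direction under the 5 alternatives that changed any value of the set. For genes with 1 probe only 4 of these could do so. The other 4 of the 9 alternatives left all 10 values as they were. Calb1 ranged from -8.31 to -6.10, Car2 from -4.86 to -3.50, Slc24a3 from -3.93 to -3.09, Slc4a4 from -3.88 to -2.62, Atp2b1 from -2.36 to -1.60 and Car6 from 3.84 to 4.97. Slc24a4 ranged from -0.86 to 0.06, Stim1 from -0.84 to -0.15 and Cftr from -0.67 to 0.13, and none of these passed 2-fold. Scaling moved all genes together. Spike-in scaling, which sets the arrays to RNA added in known amounts, moved the median of all genes to -0.73 and gave 6163 genes at least 2-fold higher in tooth and 1519 in skin, in place of 2691 and 2466. A median shift moved it to -0.29 and gave 3500 and 2020.

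**Figure D5:**
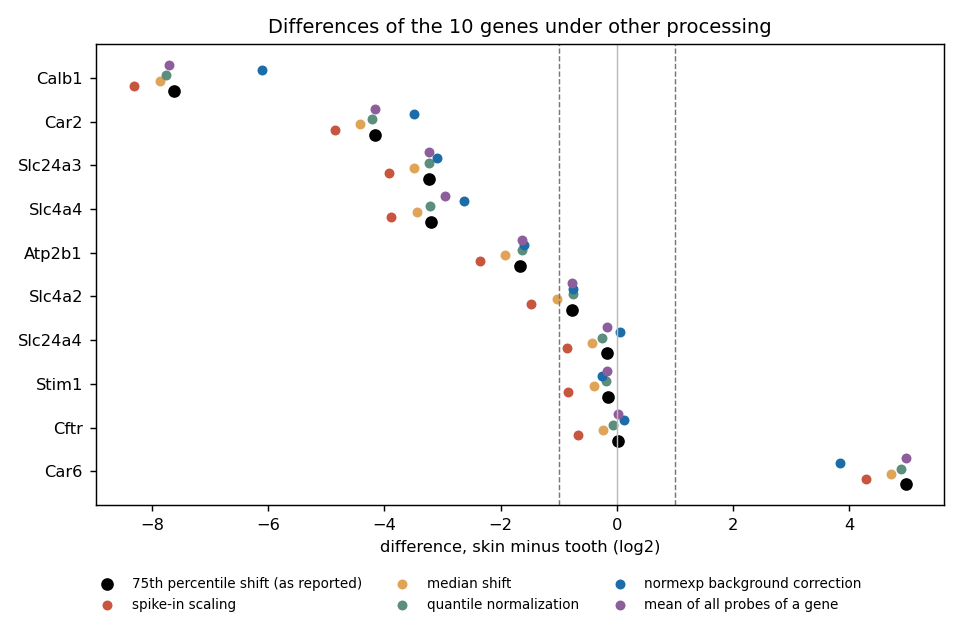
Difference in log2 level, skin minus tooth (horizontal axis), of the 10 genes as reported (black) and under 5 of the alternatives (colours), 1 array per tissue. Dashed lines mark 2-fold. Calb1, Car2, Slc24a3, Slc4a4 and Atp2b1 stay left of -1 and Car6 stays right of 1, while Slc4a2 crosses -1 under a median shift (-1.03) and spike-in scaling (-1.47).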

How the data were processed

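RNA of 1 tooth and 1 skin sample was hybridised to Agilent 8x60K mouse arrays with 1 dye. The deposited intensities came from Agilent Feature Extraction 10.7.3.1, which had subtracted the background, corrected trends within the array and put surrogates in place of very dim values (25.0% of spots in tooth, 27.7% in skin). The same deposited files held yes-or-no calls for outliers, saturation and signal well above background. The authors also deposited a ratio per spot, the processed intensity divided by 1 factor per array (430.7 and 274.5), as a percentile shift in GeneSpring. Of 62976 spots per array, 59305 were not controls and none was saturated.

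Spots of a probe were averaged as log2 values, and the 75th percentile over the non-control probes of each array was subtracted (Python 3.11.15, pandas 2.3.3, numpy 2.4.6). The probe with the highest mean over the arrays stood for a gene. A probe was well above background when more than 50% of its spots were. Of the 33184 named probes, 82.1% were matched to RefSeq (GRCm38.p6) and the others kept the array's name. Where a probe was dim on 1 array, the fold was given as a bound against the lowest level well above background (-4.52 in tooth, -3.73 in skin). The arrays, 1 per tissue, limit the precision, so no test was run. The errors of members propagate the deposited error of each spot. Spot scatter came from probes printed repeatedly (288 in tooth, 273 in skin). The steps were tested on simulated data. Alternatives were spike-in scaling (8 spike-ins), a median shift, quantile normalization, normexp background correction (offset 50, limma 3.58.1 in R 4.3.3), the mean of all probes of a gene, other treatments of dim probes and the deposited ratios. The members and lists were chosen with earlier results of these data known. Some markers of red cells and the list of Schwann cell markers are not reported here. Named genes were all members and the other markers and, of each other list, at most the 4 largest differences of at least 2-fold in each direction. The calcium buffers Pvalb, Calb2 and S100g, and Slc4a9 and Car4, fell outside this rule and were named after their values were seen.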

Additional observations from a re-analysis of the deposited data

How the results depend on the processing

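The direction and the side of the 2-fold threshold were kept by Calb1, Car2, Slc24a3, Slc4a4, Atp2b1 and Car6 under the 5 of 9 alternatives that changed any value of the set. The other treatments of dim probes and the deposited ratios left all 10 values as they were. The median of the 10 genes moved from -1.23 to -1.92 under spike-in scaling and to -1.47 under a median shift, and that of the 97 other transport and enamel genes from -0.23 to -0.92 and -0.48. Spike-in scaling raised the number of these 97 genes at least 2-fold higher in tooth from 28 to 45. The scaling itself accounts for these shifts, since it subtracts 1 value from all genes of an array. Slc4a2 passed 2-fold under both scalings, which gave 6 of the 10 genes in tooth. No gene of the set that passed 2-fold changed sign. Over all genes, normexp correction gave 1672 genes at least 2-fold higher in tooth in place of 2691 and 1743 in skin in place of 2466, and the cause was not tested. No paired analysis was possible because each tissue had 1 array, and for the same reason no array could be left out. Dim values limit the bounds, and levels below the lowest signal called well above background have no order.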
